A study of Mus musculus with 4 samples.

Results

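The cells described here were the mitotic keratin-positive tumour cells of a transplanted mouse tumour, 623 of the 3121 tumour cells and of the 4404 barcodes of any kind kept from 4 single-cell libraries. They were chosen by measured values. Barcodes under 200 detected genes, or with over 10% of their unique molecular identifiers (UMIs, counted RNA molecules) on mitochondrial genes, were set aside. A barcode was called a tumour cell with at least 5 UMIs of the keratin genes Krt8 plus Krt18 and under 10 UMIs of the myeloid genes Lyz2, Tyrobp, Fcer1g and Ctss together. A mitotic score then summed the UMIs of 10 genes (Cenpf, Ube2c, Hmmr, Aurka, Cenpa, Cdc20, Plk1, Cenpe, Tpx2 and Ccnb1) over all UMIs of the cell, and the top 20% of the tumour cells of each library by this score were the members. Every library therefore gave the same share of members, and the share itself is no result.

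The libraries came from Swiss albino mice carrying tumours of DLA cells (Dalton's lymphoma ascites, a transplantable mouse line that the labels give the cell type lymphoma), started by injecting the cells into the abdomen. Control 1 and Control 2 were labelled untreated, and Treated 1 and Treated 2 received SP11, an inhibitor of the chaperone HSP90, given by mouth at 30 mg/kg for 17 days. The tumour tissue, with the host cells it held, was dissociated with enzymes and red cells were lysed before capture on the 10x platform. Strain, dose and duration are as the published methods state them, and ages are not given in the sources used here. The methods speak of independent sets of samples, but the labels do not say whether the libraries of a group came from separate mice, so every p-value below measures the spread between these libraries only, which may be technical.

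A dividing cell copies its DNA in S phase, prepares in G2 and separates the copies in mitosis, where condensed chromosomes are pulled apart by a spindle of microtubules. The RNAs of the machinery (mitotic cyclins, Aurora and Polo kinases, kinetochore proteins, kinesin motors) accumulate from G2 and are lost after division, through the DREAM, B-MYB and FOXM1 regulators. In the promoters of these genes, the cell cycle genes homology region (CHR) and CCAAT boxes are the best known elements. A score built from such RNAs therefore covers G2 as well as mitosis, and neither DNA content nor protein was measured here.

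Control 1 gave 167 members from 838 tumour cells, Control 2 gave 105 from 526, Treated 1 gave 238 from 1190 and Treated 2 gave 113 from 567. Tumour cells made up 91.5% and 92.9% of the kept barcodes in the control libraries and 65.0% and 52.0% in the SP11 libraries. On the score, in UMIs per 10000 UMIs of the cell, the lowest member stood at 20.4, 17.8, 17.6 and 21.7 in the 4 libraries in that order, and the highest cell left out at 20.3, 17.5, 17.5 and 21.1. There was no gap at the limit, so the members are the upper end of a continuous range. The median member scored 31.1, 26.6, 28.8 and 34.2, the median of the other tumour cells 5.03, 6.35, 5.26 and 5.25, and the highest single cell reached 64.0. The score rested on a median of 45, 58, 34 and 86 UMIs in a member, while 5 members of Control 1 and 12 of Treated 1 were chosen on fewer than 10.

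Members were larger in RNA content than the other tumour cells of their library. The median member held 14064, 21494, 11092 and 25085 UMIs against 10457, 16766, 8488 and 19144, a ratio between 1.28 and 1.34 in the 4 libraries. Mitochondrial genes took 1.56% to 2.15% of the UMIs of the median member and 1.49% to 2.11% of the median other cell. Scrublet, which scores barcodes that look like 2 cells, marked 15, 13, 3 and 0 members as doublets, 8.98%, 12.4%, 1.26% and 0% of them, against 4.47%, 7.84%, 0.735% and 1.54% of the other tumour cells. The ratio of RNA content and, in the controls, the doublet share thus moved with membership. Calls made with the marked doublets left out, with every cell thinned to 5000 UMIs, and without shared barcodes are given in the closing section. Libraries shared barcodes: 896 of the 4353 distinct barcodes were found in more than 1 library, and 60, 48, 79 and 42 members carried a barcode also present elsewhere. Profiles of the same barcode in different libraries had median correlations from -0.026 to 0.034 over the 6 pairs of libraries, against -0.015 to -0.0043 for different barcodes, and the same-barcode value was the higher in 2 pairs.

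The label lymphoma was checked against marker genes. Ptprc, the pan-leukocyte gene CD45, was at 0 and 0 counts per 1000000 UMIs summed over the cells of a library (CPM, the unit of all levels below) in the members of the controls, and at 6.13 and 2.49 CPM in those of the SP11 libraries. The 9 T cell genes checked together reached 1.33, 1.75, 9.02 and 2.49 CPM. By contrast, 11 epithelial genes outside the gate summed to 2704, 1820, 2442 and 2105 CPM in the members, with Epcam, an adhesion molecule of epithelia, at 269, 244, 248 and 213 CPM. The defining markers of T cells were thus near 0 in the members and the epithelial list as a sum was not. The cells are called keratin-positive tumour cells for that reason. Only 8 of the 11 epithelial genes had enough UMIs to be tested between cell groups, so the sum does not speak for each gene. The cells were also chosen on Krt8 and Krt18, so epithelial expression is in part what the choice asked for.

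Promoters are shown first, because the genes of the score share letters that the choice of cells did not use. Sequences are RefSeq windows of GRCm38.p6, the mouse build also named mm10, and each line gives 120 bases before and 30 bases from the annotated start, read 5′ to 3′ on the strand of the gene. Capitals mark CHR letters (TTTGAA or TTCGAA, or TTCAAA and TTCGAA read on the other strand) and CCAAT (or ATTGG on the other strand). No motif marked here overlaps another.
Cenpf, chr1:189688057-189688206, minus strand: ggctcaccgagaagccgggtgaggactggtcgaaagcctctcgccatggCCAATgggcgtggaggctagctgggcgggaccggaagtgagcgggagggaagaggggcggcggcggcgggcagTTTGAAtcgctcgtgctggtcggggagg
Ube2c, chr2:164769809-164769958, plus strand: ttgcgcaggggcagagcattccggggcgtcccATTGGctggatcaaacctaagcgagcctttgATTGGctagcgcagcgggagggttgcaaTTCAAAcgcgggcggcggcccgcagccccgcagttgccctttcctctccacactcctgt
Hmmr, chr11:40733408-40733557, minus strand: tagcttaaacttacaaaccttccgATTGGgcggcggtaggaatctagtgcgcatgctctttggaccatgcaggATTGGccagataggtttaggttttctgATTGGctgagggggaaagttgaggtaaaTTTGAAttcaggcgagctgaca
Cdc20, chr4:118437314-118437463, minus strand: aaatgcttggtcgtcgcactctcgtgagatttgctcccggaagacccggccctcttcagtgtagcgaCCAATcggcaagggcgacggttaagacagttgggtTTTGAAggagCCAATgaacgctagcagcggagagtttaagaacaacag
Ccnb1, chr13:100786457-100786606, minus strand: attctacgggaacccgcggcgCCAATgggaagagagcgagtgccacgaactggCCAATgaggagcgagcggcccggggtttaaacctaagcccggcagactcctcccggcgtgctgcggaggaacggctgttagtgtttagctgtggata
Aspm, chr1:139454653-139454802, plus strand: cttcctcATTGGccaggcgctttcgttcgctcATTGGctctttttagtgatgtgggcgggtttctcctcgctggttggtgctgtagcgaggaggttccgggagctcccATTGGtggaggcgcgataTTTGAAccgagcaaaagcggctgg
Kif2c, chr4:117178743-117178892, minus strand: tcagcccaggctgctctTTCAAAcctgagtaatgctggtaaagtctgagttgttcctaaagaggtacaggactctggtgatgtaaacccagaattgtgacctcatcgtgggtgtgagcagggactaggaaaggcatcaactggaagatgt
Nusap1, chr2:119618178-119618327, plus strand: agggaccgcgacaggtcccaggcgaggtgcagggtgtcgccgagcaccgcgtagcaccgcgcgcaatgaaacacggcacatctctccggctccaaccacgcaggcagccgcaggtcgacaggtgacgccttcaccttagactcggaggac
Cdc6, chr11:98908031-98908180, plus strand: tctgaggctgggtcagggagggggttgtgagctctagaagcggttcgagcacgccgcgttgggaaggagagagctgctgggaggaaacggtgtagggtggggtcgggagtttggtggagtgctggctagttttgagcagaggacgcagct
The first 5 belong to the score, and Aspm, Kif2c and Nusap1 are spindle genes outside the score that were higher in the members. Of these 3, Aspm holds both motifs in this stretch, Kif2c holds the CHR letters alone and Nusap1 holds neither. Cdc6, a replication licensing gene that was lower, holds neither as well, so the motifs do not separate the printed genes by direction. In Cenpf, Hmmr, Cdc20 and Aspm the CHR lay within 20 bases of the annotated start, with 1 to 3 CCAAT letters near it.

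Over the whole window of 250 bases before and 50 after the start, 9 of the 10 score genes had an entry and 7 of the 9 windows (77.8%) held a CHR, while all 9 held CCAAT. Of all 32851 windows in the reference, 19.2% held a CHR, 37.4% CCAAT and 7.53% both. The mitotic machinery outside the score (104 listed genes, of which 87 had an entry, in 99 windows) held a CHR in 61.6%, CCAAT in 66.7% and both in 47.5% of its windows. Among the parts of the machinery, the kinesin motors were highest, with a CHR in 10 of 11 windows (90.9%). The replication licensing genes, which were lower in the members, held a CHR in 17.4% of 23 windows and CCAAT in 69.6%, and none of the 10 windows of HSP90 and its cochaperones held a CHR. A match of 6 or 5 letters is a description of the sequence and shows no binding.

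The 10 score genes chose the cells, so their levels are a description. Cenpf, a kinetochore protein of G2 and mitosis, was at 747, 630, 741 and 848 CPM in the members and at 116, 122, 122 and 125 CPM in the other tumour cells. Ube2c, the ubiquitin-conjugating enzyme of the anaphase-promoting complex, was at 794, 776, 650 and 842 CPM in the members and 118, 159, 126 and 126 CPM in the others. Members stood above the other cells in each library, and the gap was far wider than the differences between libraries. Hmmr, a spindle assembly factor, was at 256, 248, 231 and 286 CPM in the members, Plk1, the Polo kinase of mitotic entry, at 122, 102, 122 and 127 CPM, and Ccnb1, cyclin B1, at 204, 180, 176 and 204 CPM. Over the libraries, the fold between members and others ran from 5.17 to 6.78 for Cenpf, 4.88 to 6.73 for Ube2c, 4.67 to 5.48 for Hmmr, 4.16 to 5.50 for Plk1 and 3.67 to 4.07 for Ccnb1. Cenpf and Ube2c each gave more than 20% of the score's UMIs and Plk1 3.26% to 4.06%, so the score leaned on the former.

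**Figure D1:**
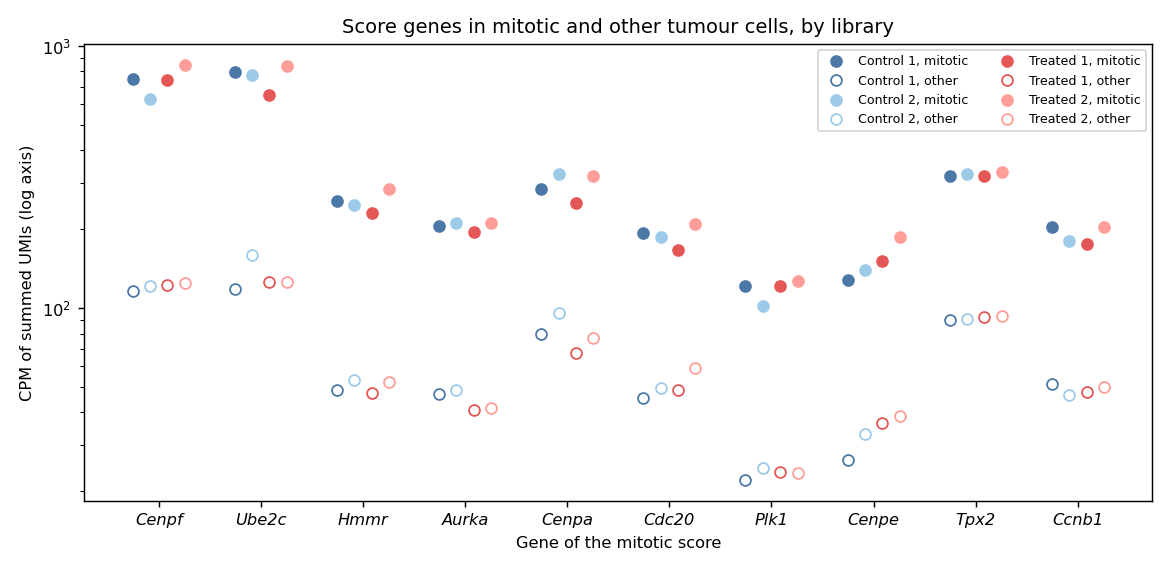
Level of each of the 10 score genes, in CPM on a log axis, in the mitotic tumour cells and the other tumour cells of the 4 libraries, each point being 1 library. The members of every library lie above the other cells of every library, for example Cenpf between 630 and 848 CPM against 116 to 125 CPM. The cells were chosen on the sum of these genes within each library, so the gap is a description.

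Each gene was next left out of the score and the cells chosen again with the other 9. Cenpf then differed by 4.86 to 6.44 fold, Ube2c by 4.39 to 6.24 fold and Plk1 by 4.06 to 5.35 fold between the newly chosen members and the rest, and 90.4% to 98.8% of the members were the same cells. When only Cenpf, Hmmr, Cenpa, Plk1 and Tpx2 chose the cells, the 5 genes not used were all higher in the members, with log2 differences of 2.35 for Ube2c, 2.06 for the mitotic kinase Aurka, 2.01 for the kinetochore motor Cenpe, 1.80 for Ccnb1 and 1.75 for the anaphase activator Cdc20. Ube2c, for example, was at 767, 762, 629 and 829 CPM in these cells against 130, 168, 138 and 130 CPM in the rest. These 5 genes thus stood higher in cells that they had no part in choosing. From cell to cell within the members, correlations lay between -0.20 and 0.40 over 45 gene pairs in each library, with a median of 0.03 to 0.04 per library. The members were chosen on the sum of these same genes, which by itself lowers such correlations, and the counts were sparse. These values therefore do not show how far the genes move together.

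Members and other tumour cells were then compared across all genes outside the rule, with both sums of a library paired (edgeR quasi-likelihood test, UMIs summed per library and cell group, adjusted p at most 0.05). The cells were chosen on cell cycle RNAs in these same libraries, so the calls describe what went with the score and are no test that the members form a class. Of 10239 genes tested, 957 were higher in the members (9.35%) and 1075 lower (10.5%). The sign was shared by all 4 libraries for 897 of the former and 874 of the latter, against 20.1% of all genes tested that were higher in all 4 and 13.2% that were lower. The median log2 difference over all genes tested was -0.004. Against this background, 77 of 103 tested genes of the mitotic machinery outside the score were higher and 3 lower, with a median log2 difference of 0.71.

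Mitotic entry is driven by CDK1 with its B and A cyclins, which CDC25 phosphatases switch on and the kinases WEE1 and PKMYT1 hold back. Of the 13 entry genes, 11 were higher in the members and none lower (median log2 difference 0.96). Cdc25c rose by 1.94 and Cdc25b by 1.84 on the log2 scale, and Cdc25b was at 28.4, 17.5, 35.7 and 42.0 CPM in the members against 7.37, 7.11, 9.49 and 9.78 CPM in the others. Ccnb2, cyclin B2, rose by 1.28, Ccnf by 1.41, the kinase gene Nek2 by 1.33, Ccna2 by 0.96 and Cdk1 itself by 0.73. The brakes were the exception: Wee1 (log2 difference -0.01) and Pkmyt1 (-0.20) did not pass the test. Of the 7 regulators in the DREAM, B-MYB and FOXM1 group, Foxm1 (0.51) and Lin37 (0.48) rose and Mybl2, which encodes B-MYB, fell (-0.38). Mybl2 was at 22.2, 21.0, 26.3 and 32.7 CPM in the members, below 24.4, 28.6, 37.4 and 38.6 CPM in the other cells of the same libraries.

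The chromosomal passenger complex corrects faulty attachments to the spindle, and all 4 of its genes rose, namely Cdca8 (1.13), Incenp (0.94), Birc5 (0.58) and Aurkb (0.55). Of 12 genes of the spindle assembly checkpoint, which delays anaphase until all chromosomes are attached, and its shugoshins, 8 rose and none fell (median 0.78). Sgo2a, which guards centromere cohesion, rose by 1.87, and the checkpoint kinase gene Bub1b by 1.59 with levels of 44.3, 56.0, 63.1 and 70.5 CPM in the members and 17.1, 18.5, 19.3 and 20.9 CPM in the others. Knl1 rose by 1.14, Bub1 by 0.97 and Mad2l1 by 0.66. For Bub1b the lowest value among the members was above the highest among the other cells.

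The kinetochore list, the proteins that hold microtubules at the centromere, was mixed. Of 19 genes, 12 rose and 1 fell, with a median of 0.34. Cenpl (1.44), Spc25 (1.12) and the CENP-A chaperone gene Hjurp (0.94) rose, and Cenph fell by 0.28. Cenpl was low, at 10.3 to 14.2 CPM in the members and 3.76 to 5.19 CPM in the others. The 4 genes of the MIS12 complex, Dsn1, Mis12, Nsl1 and Pmf1, lay between -0.21 and 0.15 and none passed.

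Kinesins, the motors that build and move the spindle, formed the list with the highest median, 1.40, and 11 of 12 rose. Kif2c, a microtubule depolymerase at the centromere, rose by 2.13, Kif14 by 1.86, Kif20a by 1.84 and Kif22, a chromokinesin, by 1.72. Kif20a was at 64.7, 54.3, 50.1 and 57.6 CPM in the members and 14.6, 13.5, 14.2 and 18.2 CPM in the others. The exception was Kif15 (0.14), at 32.4 to 35.0 CPM in the members and 27.2 to 32.8 CPM in the others, which did not pass. Of 18 tested spindle genes 14 rose and none fell (median 0.69). Aspm rose by 2.05 and Nusap1, a microtubule bundling factor, by 2.00, whereas among the tubulins Tubb4b rose by 0.76, Tubb5 by 0.36, Tuba1b by 0.17 and Tuba1a (-0.08) did not pass. Stmn1, which destabilizes microtubules, was level (0.00, not past the test).

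Condensins compact chromosomes and topoisomerase 2 untangles them. Of the 10 genes of this list 8 rose and 1 fell (median 0.62). Top2a rose by 0.65, at 322, 306, 362 and 356 CPM against 202, 212, 210 and 213 CPM, and Mki67, the Ki-67 proliferation marker, by 0.78, while Ncapg2, a condensin II subunit, fell by 0.39. Cytokinesis, the last cut between daughter cells, was represented by 8 genes of which 7 rose (median 1.18). Prc1, which bundles the central spindle, rose by 1.38 with levels of 549, 578, 516 and 560 CPM against 199, 232, 188 and 206 CPM, and Cit (1.33), Ect2 (1.25) and Cep55 (1.13) followed.

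**Figure D2:**
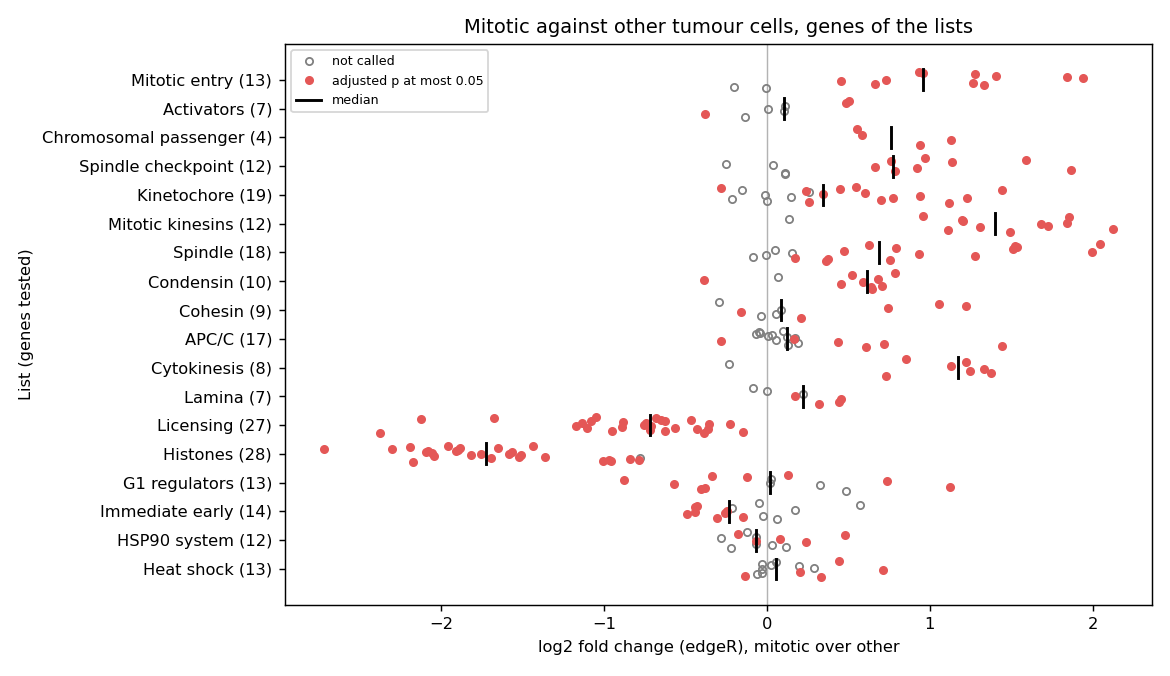
Log2 difference between mitotic and other tumour cells for each tested gene of the lists, one point per gene, with the median of each list marked and genes past the edgeR test filled. Kinesins, cytokinesis and entry genes lie furthest above 0, and replication licensing genes and histones lie below 0.

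Rings of cohesin hold the copied chromosomes together until separase cuts them. Of 9 genes, the core subunit gene Rad21 (0.74), securin Pttg1 (1.22), separase Espl1 (1.06) and the release factor Wapl (0.21) rose and Smc3 fell (-0.16), with a list median of 0.09. The anaphase-promoting complex marks securin and the cyclins for destruction. Of its 17 genes and regulators 5 rose and 1 fell (median 0.12), and the largest were Fzr1 (1.44), the activator of late mitosis, at 67.0, 40.7, 80.1 and 63.0 CPM against 24.4, 19.0, 25.4 and 21.2 CPM, Cdc27 (0.72) and the chain-elongating enzyme Ube2s (0.61). Cdc16, a scaffold subunit, fell by 0.28. Among 7 genes of the nuclear lamina, which is dismantled in mitosis, 4 rose by 0.45 or less, Lmnb1 being the largest.

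Genes of the preceding phase were lower. All 27 tested genes of replication licensing and the G1/S transition fell, with a median of -0.71. Ung, which removes uracil from DNA, fell by 2.38 on the log2 scale, from 35.2, 29.1, 32.3 and 40.3 CPM in the other cells to 4.88, 6.56, 6.13 and 9.25 CPM in the members. Cdc6 fell by 2.12, the cyclin E gene Ccne2 by 1.68, the MCM helicase genes Mcm2 by 1.17 and Mcm6 by 1.11, and Pcna, the sliding clamp, by 0.62. The other cells of the 4 libraries all lay above the members for Ung. Slbp, which protects histone mRNA during S phase, fell by 0.95. In the widely used S phase list of 43 genes, which shares members with the licensing list, 37 fell and none rose (median -0.56), and in the matching G2/M list 42 of 45 genes outside the score rose and none fell (median 0.94).

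Replication-dependent histones, made in S phase to pack new DNA, had the lowest median of the lists. Of 28 tested, 27 were lower in the members and none higher, with a median of -1.72. Hist1h1b, a linker histone, was at 322, 330, 323 and 127 CPM in the members against 1229, 1252, 1020 and 609 CPM in the other cells, a fall by 1.96 on the log2 scale. Hist1h2ae, an H2A gene, was at 86.5, 117, 89.1 and 32.7 CPM against 454, 606, 309 and 198 CPM. The members of every library lay below the other cells of the same library for both. Histone genes are close copies of each other, so the counting may split their reads among them, and most of their mRNAs lack the poly(A) tail that the 3′ capture reads.

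Tumour cells were ordered by the score into 5 equal groups (quintiles) within each library, the members being the last. The summed level of 137 mitotic genes outside the score was 8071 CPM in the lowest quintile and 17330 CPM in the members of Control 1, 8372 and 16140 CPM in Control 2, 8894 and 17110 CPM in Treated 1, and 7875 and 17850 CPM in Treated 2. Histones followed another course. In Control 1 they ran from 1942 CPM in the lowest quintile through 3964 to 5028 CPM in the middle one, stood at 4606 CPM in the next and were at 1148 CPM in the members. The other libraries had the same shape, with their highest value in the middle quintile and members at 1238, 1110 and 500 CPM.

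Within the members, cut into 3 equal groups (tertiles) by score, histones went lower still, from 1816 through 1094 to 571 CPM in Control 1 and from 816 through 468 to 265 CPM in Treated 2. The mitotic genes outside the score reached 18620, 18320, 18950 and 18950 CPM in the last tertile. The highest-scoring tertile of members thus held the lowest histone level of the 3 in each of the 4 libraries, as a description, since the score orders the cells.

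**Figure D3:**
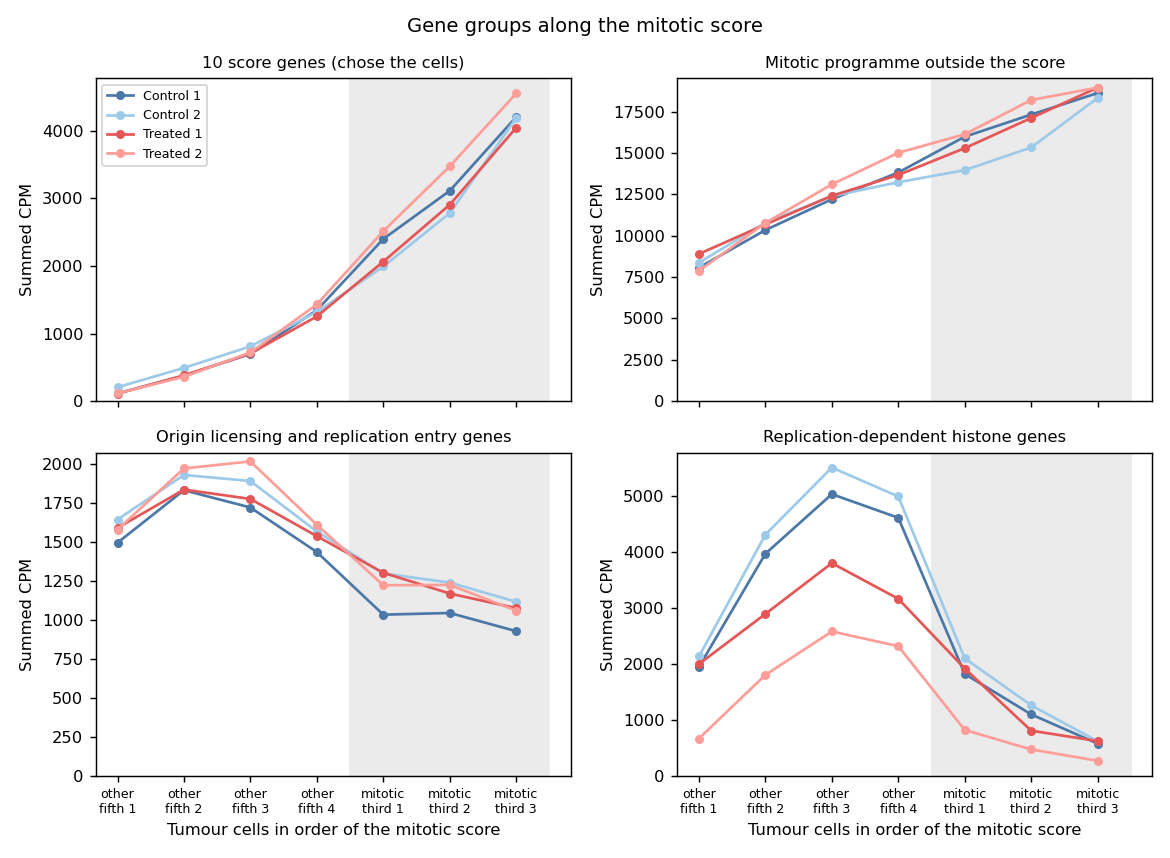
Summed level of gene lists, in CPM, over quintiles of tumour cells by mitotic score, one line per library. The last quintile (the members) is drawn as its tertiles. Histones peak in the middle quintile at 2575 to 5503 CPM and lie between 265 and 2095 CPM in the tertiles of members. Mitotic genes outside the score are higher in each group drawn than in the one before.

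Among G1 regulators, 3 of 13 rose and 6 fell. Cdkn2d, the CDK inhibitor p19, rose by 1.13, at 129, 102, 106 and 112 CPM in the members against 50.1, 47.2, 50.6 and 50.4 CPM in the others. Cdkn1b, the inhibitor p27, rose by 0.74, and Ccnd1, cyclin D1, by 0.13. Cdkn1a, the inhibitor p21, fell by 0.88, at 46.5, 49.9, 53.8 and 57.6 CPM against 85.3, 91.7, 98.7 and 96.2 CPM. The CDK inhibitors thus did not move as a group. Gtse1, a p53-binding G2 protein, rose by 1.61 and was, with Cdkn1a, one of the only 2 calls among 10 genes of the p53 list.

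Immediate early genes, the first transcribed after a growth signal, had 8 of 14 lower and none higher. Jun fell by 0.49, from 143, 134, 120 and 111 CPM in the other cells to 100, 94.5, 100 and 76.2 CPM in the members, and Egr1 (-0.44), Ier2 (-0.44) and Myc (-0.31) fell too. Of 12 genes of HSP90 and its cochaperones, the target class of SP11, 3 rose and 2 fell by small amounts (median -0.07). Hsp90aa1 was at 2175, 2554, 2503 and 2831 CPM in the members and 1977, 2304, 2272 and 2678 CPM in the others, a rise of 0.08 on the log2 scale, and Hsp90ab1 fell by 0.07. Chordc1, a cochaperone gene, rose by 0.48. Of 13 heat shock genes 4 rose, with Hspa4l (0.71) and the cochaperone gene Bag3 (0.45) the largest, and Hspe1 fell by 0.14. Epithelial genes changed little, Krt7 falling by 0.24 and Krt19 by 0.19 while Epcam rose by 0.18 and the desmosome gene Dsp by 0.30. Of 8 genes that the study followed as HSP90 clients and stemness markers, Myc fell and Hsp90aa1 rose, and of 5 nuclear noncoding RNAs 3 rose and Neat1 fell (-0.35). Markers of other cell types were lower or did not pass, with 3 of 4 tested B cell genes, 2 of 4 neutrophil genes and 2 of 5 erythroid genes lower in the members and none higher. In each control 1 cell held 54.3% of the haemoglobin UMIs of the other tumour cells. The B cell list had 7 and 9 UMIs in the other tumour cells of the controls and 1096 and 603 in those of the SP11 libraries.

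Among the 10 largest rises, named by a rule on size, 3 genes lay outside the lists. The largest was Tnfaip8l1, at 23.1, 17.5, 29.2 and 22.1 CPM in the members against 2.46, 5.02, 3.84 and 3.11 CPM in the other cells (log2 difference 2.64). Fam110a, which encodes a spindle-pole protein, rose by 2.27 and Miip by 2.05. The other 7 belonged to the lists, with Gas2l3, a linker of actin and microtubules (2.25), and Pimreg (2.20) in the G2/M list, besides Kif2c, Aspm, Nusap1, Cdc25c and Sgo2a. Of the 10 largest falls, 8 were histone genes and the others were Ung and Cdc6. Genes lower in the members also had shorter transcripts, with a median of 2222 bases for the longest annotated transcript and 15.9% under 1000 bases, against 3619 bases and 2.40% for the genes that were higher and 3287 bases and 6.24% for all tested.

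The next question was whether members differed between SP11 and control libraries. The score chose the members, so its level is given without a test result. Read from their summed UMIs, it was 3253 and 3125 CPM for the controls against 3003 and 3566 CPM for the SP11 libraries (3189 ± 90.5 against 3284 ± 398, SD, n = 2 each). The log2 ratio was 0.04. The SP11 libraries held both the lowest and the highest value. The 137 mitotic genes outside the score stood at 17330 and 16140 CPM against 17110 and 17850 CPM, a log2 ratio of 0.06 (two-sided exact permutation test, p = 0.667, where 2 against 2 libraries cannot give less than 0.333). In the other tumour cells the score genes were at 684 CPM on average in the controls and 670 CPM with SP11.

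Across 9263 genes tested in the members, 54 were higher (0.583%) and 36 lower (0.389%) with SP11 (edgeR, adjusted p at most 0.05). Genes used by the rule were not left out of these counts. Among the calls, 3 of the 6 keratin and myeloid genes of the gate were higher and mt-Nd4l was lower. The counts also hold genes, named below, that met the limit for testing through the SP11 libraries. Such calls are no support. Of the 90 calls, 86 had libraries of both groups that did not overlap. A call with 2 libraries a group favours such genes, so this count is no further support. Over all genes tested, both SP11 libraries lay above both controls for 29.7% and below both for 9.88%. At an unadjusted p under 0.05 stood 929 genes. In the other tumour cells of the same libraries 124 of 11062 genes were higher (1.12%) and 50 lower (0.452%). The former include 3 genes of the gate.

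None of the 102 tested genes of the mitotic machinery outside the score passed in either direction with edgeR, and 10 had an unadjusted p under 0.05. Their log2 changes ran from -0.43 to 0.66 with a median of -0.04, beside -7.7e-05 for all genes tested. The largest was that of Cdc25b, whose SP11 members lay above both controls (log2 change 0.66, 95% interval 0.22 to 1.09, edgeR adjusted p = 0.179). For 97 of the 102 genes the 95% interval lay within a doubling or halving (-1 to 1 on the log2 scale), against 77.8% of all genes tested. The libraries of the groups did not overlap for 32 genes above and 10 below, where 29.7% of all genes tested lay above and 9.88% below.

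The score genes were used to choose the members, so they are described and no test result is given for them. Cenpf stood 0.10 higher with SP11 on the log2 scale, Plk1 0.05 and Cenpe 0.23, while the differences of Ube2c and Cenpa were -0.18 and -0.20. Neither the 26 licensing genes tested nor the 43 of the S phase list gave a call. The 12 genes of HSP90 and its cochaperones gave none either, with Hsp90aa1 at 2175 and 2554 CPM in control members against 2503 and 2831 CPM (log2 change 0.07, 95% interval -0.22 to 0.36). The lists of heat shock (12 genes tested), p53 (9), immediate early (13), G1 (13), epithelial (7) and study genes (8) had no call either. A change smaller than these intervals was not detectable with 2 libraries a group. Neat1, a nuclear noncoding RNA, was higher at 44.7 and 55.9 CPM against 27.5 and 28.4 CPM (log2 change 0.74, edgeR adjusted p = 0.0394) and was the only call among 5 nuclear noncoding RNAs.

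**Figure D4:**
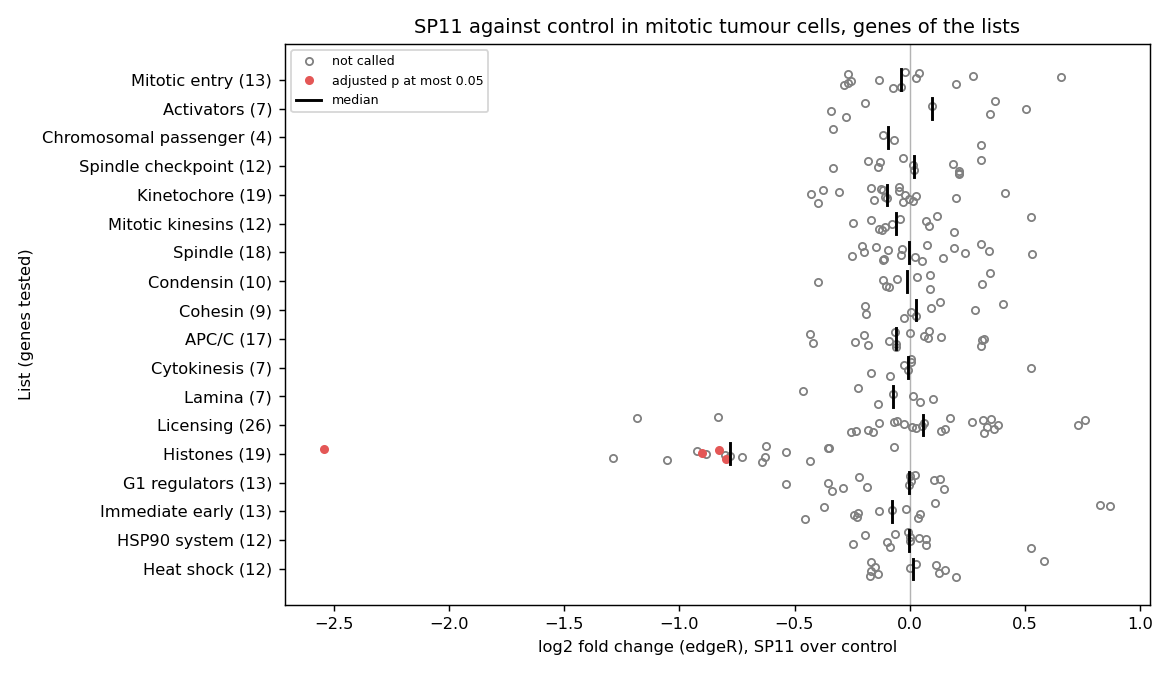
Log2 change with SP11 in the mitotic tumour cells for each tested gene of the lists, one point per gene, with the median of each list marked and genes past the edgeR test filled. The mitotic lists lie around 0 between -0.43 and 0.66 with no call, and histones lie below 0.

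Histones were the one cell cycle list with calls, the mitotic, licensing, S phase, G2/M and G1 lists having none. Of 19 tested in the members, 4 fell with SP11 and none rose (median -0.78, all 19 below 0). Both SP11 libraries lay below both controls for 9 of the 19, and for 9.88% of all genes tested. Hist1h4d, an H4 gene, was at 295 and 253 CPM in the control members and 226 and 111 CPM in the SP11 members (log2 change -0.80, edgeR adjusted p = 0.00565), and Hist1h2ae at 86.5 and 117 against 89.1 and 32.7 CPM (-0.83, adjusted p = 0.0224). The widest fall was that of Hist1h2ab (-2.54), a gene of few UMIs at 6.21, 7.88, 1.80 and 0.712 CPM. Treated 2 lay lowest for these 3 genes, and Treated 1 overlapped the controls for Hist1h2ae. Without Treated 2 the list gave 0 calls and a median of -0.24, and without Treated 1 it gave 12 calls and a median of -1.51, so the fall rested on Treated 2. Without Control 2 there was 1 call and with DESeq2 there were 0, and over the other settings in the closing section the number ran from 0 to 11. In the other tumour cells 15 of 31 histones fell (median -1.05). Rebuilt without the marked doublets the members gave 2 calls, and thinned to 5000 UMIs none.

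Genes of other cell types made up most of the largest rises. All 5 erythroid genes were called higher, but Hba-a2, Hbb-bt and Alas2 had fewer than 10 UMIs in the members of each control and met the limit for testing through the SP11 libraries. The others were the globin genes Hbb-bs, at 44.3 and 35.0 CPM in the control members and 5410 and 2646 CPM with SP11, and Hba-a1, at 27.0 and 19.3 against 3911 and 1659 CPM. Summed, the erythroid list was at 75.8 and 60.8 CPM in the control members and 9824 and 4582 CPM in the SP11 members. Globin genes are close copies, so the split of UMIs between them is uncertain. Haemoglobin UMIs were found in 62.3% and 66.7% of control members with a median of 1, and in 100% of members of both SP11 libraries with medians of 25 and 35. In Treated 2, 5 of the 113 members held 66.3% of the members' haemoglobin UMIs. The kept barcodes outside the tumour gate held 2.85% and 5.79% of their UMIs as haemoglobin in the controls and 5.23% and 8.73% in the SP11 libraries. The part that RNA from other cells has in these values was not tested.

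B cell genes followed the same order, 6 of them summing to 1.33 and 2.19 CPM in the control members and 74.7 and 32.7 CPM in the SP11 members. The 3 of these genes with enough UMIs to be tested, Cd79a, Igkc and Ighm, met that limit through the SP11 libraries, so their count is no support. Cd79a, part of the B cell receptor, had 3 and 4 UMIs in the control members and 53 and 22 in the SP11 members. Ighm, the heavy chain of IgM, had 0 UMIs in both controls and 26 and 12 with SP11, at least 10.3-fold higher against a floor of 3 UMIs over the control group. The neutrophil gene S100a9, which encodes a calcium-binding protein, was at 1.33 and 1.31 CPM without SP11 and 48.3 and 72.9 CPM with it, and Retnlg went from 0 UMIs to 20 and 28, at least 13.0-fold higher, while Ly6g (log2 change 0.23) and S100a8 (0.71) did not pass. Il1b, the cytokine interleukin 1 beta, went from 0 to 45 and 31 UMIs, at least 20.6-fold. Rac2 (at least 11.7-fold), Dock2 (7.05-fold) and Hp (6.24-fold) were also at 0 UMIs in both control groups of members, the folds being lower bounds on the same floor. The genes at 0 UMIs in both controls, and S100a9, also met the limit for testing through the SP11 libraries. Their values are a description and no support for a rise.

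The myeloid genes of the gate were used to choose the cells, so no test result is given for them. Their part in the counts of calls above is no support. Lyz2 was at 0.443 and 2.19 CPM in the control members and 24.9 and 12.4 CPM with SP11, and the log2 differences of Tyrobp and Fcer1g were 2.75 and 2.43. The gate caps these genes per cell, so their values are cut off above. The 4 myeloid genes outside the gate summed to 2.66, 5.69, 9.38 and 4.63 CPM, values that overlapped between the groups, and the T cell list to 1.33, 1.75, 9.02 and 2.49 CPM. The SP11 libraries were also those with more barcodes outside the tumour gate. Marked doublets were fewer among the SP11 members (1.26% and 0%) than among the control members (8.98% and 12.4%). The part of host cells in these values was not tested.

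**Figure D5:**
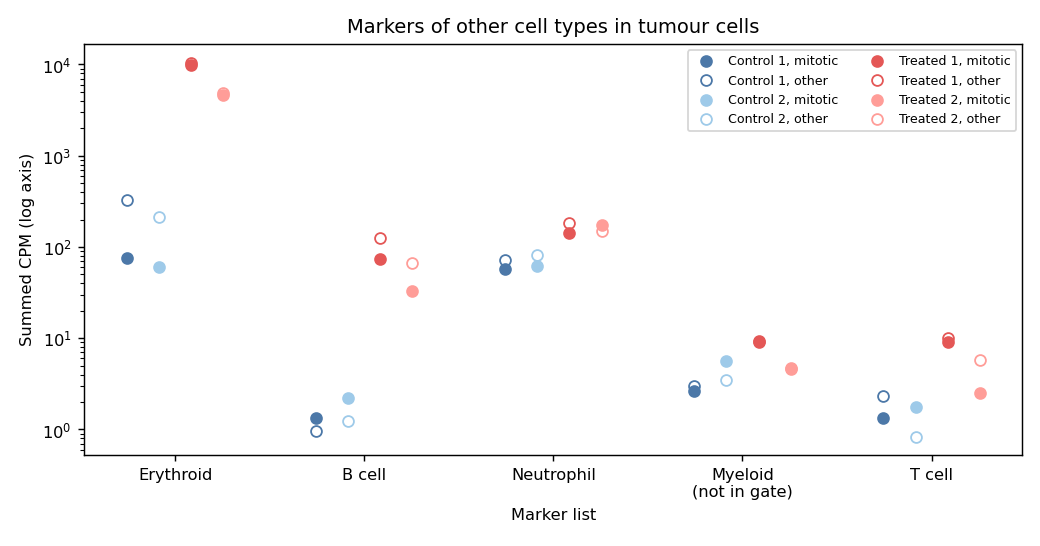
Summed level of marker genes of other cell types, in CPM on a log axis, in the mitotic and the other tumour cells of the 4 libraries, each point being 1 library. Erythroid genes stand at 60.8 and 75.8 CPM in control members and at 4582 and 9824 CPM in SP11 members, and the other tumour cells of a library lie close to its members in the SP11 libraries.

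Some rises were outside these marker lists. Camk1d, a calcium-dependent kinase gene, was at 105 and 112 CPM in the control members and 238 and 189 CPM with SP11 (log2 change 0.88, edgeR adjusted p = 1.0e-04), and Cxcl2, a neutrophil-attracting chemokine gene, at 11.5 and 12.7 against 39.7 and 32.0 CPM (1.46). Flna, which cross-links actin, and Itga3, an integrin gene, rose by 0.67 each. The groups did not overlap for these genes. In the other tumour cells Camk1d changed by 0.98 and Cxcl2 by 2.00, comparisons that rest on the same libraries.

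Genes that fell with SP11 had short transcripts. Rps28, a ribosomal protein gene, was at 3375 and 3944 CPM in the control members and 2218 and 2202 CPM with SP11 (log2 change -0.83, edgeR adjusted p = 2.0e-04), and Atp5k and Cox17, which serve the respiratory chain, fell by 0.67 and 0.63. With Rps28, the largest falls outside the histones were Gm10138 (-2.13), Smim27 (-1.04), Cox7a1 (-0.98), mt-Nd4l (-0.92) and 1190007I07Rik (-0.92). Rps27rt (-0.84), a near copy of another ribosomal gene, and AY036118 (-0.82), which overlaps ribosomal RNA, were the others. The limit on mitochondrial UMIs used mt-Nd4l, so its value is a description. The longest annotated transcript had a median of 746 bases over the 36 genes that fell, and 63.9% of them were under 1000 bases, against 3307 bases and 5.87% over all genes tested and 2973 bases and 25.9% over the genes that rose. In the other tumour cells the genes that fell had a median of 706 bases. In both cell groups the genes that fell thus had a shorter median than all genes tested. Genes that rose also held a larger share under 1000 bases than all genes tested, in the other tumour cells 16.9% against 6.68%. The part of transcript length in the result was not tested.

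Last, the difference between the SP11 effect in members and in the other tumour cells was tested directly with an interaction term. Of 10767 genes, 5 had a higher change in the members (0.0464%) and 1 a lower one (0.00929%, edgeR adjusted p at most 0.05), and 427 had an unadjusted p under 0.05. The 5 were the globin genes Hbb-bs (1.95 on the log2 scale), Hbb-bt (1.90), Hba-a2 (1.86) and Hba-a1 (1.84) with S100a9 (2.38), and the 1 was Gm42418 (-0.25), which overlaps ribosomal RNA. Among the other tumour cells, 1 cell of Control 1 held 1301 of the 2396 haemoglobin UMIs of its group and 1 of Control 2 held 839 of 1544. No member of either control held more than 8. The part of these single cells in the globin values was not tested. For S100a9 the control members were near the floor. S100a9, Hbb-bt and Hba-a2 met the limit for testing in the members through the SP11 libraries, so their values are a description. No gene of the mitotic machinery, of the licensing list or of the histones was called.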

How the data were processed

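The data are 4 single-cell 3′ RNA libraries of transplanted tumours. Values deposited were raw counts of UMIs, made by the authors with Cell Ranger 7.1.0 per the file headers. The labels give build mm10. The filter on detected genes and mitochondrial share is that of the published methods, applied here because the files also hold barcodes that fail it. Removal of doublets is not stated in the sources used here, and doublets were kept.

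Barcodes were filtered and members chosen as given at the head of the results, with Python 3.11.15 and scanpy 1.11.5 (Scrublet for doublets). The members, the gene lists and the motifs were chosen with earlier results of these data known. Counts were summed per library and cell group and tested with edgeR 4.0.16 (TMM, filterByExpr, quasi-likelihood test, Benjamini-Hochberg, threshold 0.05) in R 4.3.3, with library as a block between cell groups and 2 libraries against 2 for SP11. Members held 2255512 to 2810425 UMIs per library. Log2 differences are those of edgeR, levels are CPM without TMM. Genes used by the rule were left out of the counts of calls between cell groups, but not of those for SP11 or the interaction. Scripts were tested on simulated data.

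Genes named were the score genes, the lists, and the 10 largest called changes in each direction (5 for the interaction) that had the same sign in all libraries and at least 20 CPM between cell groups, or non-overlapping groups and at least 20 UMIs for SP11. Camk1d, Cxcl2, Flna, Itga3, Atp5k and Cox17 were picked after their values were seen. Alternatives were DESeq2 1.42.0, other size factors, other filters, the top 10% of the score, thinning to 5000 UMIs, doublets or shared barcodes left out, and each library left out. Leaving out shared barcodes was added after the data were seen.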

Additional observations from a re-analysis of the deposited data

Results flagged for a closer look

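For 6 genes the SP11 change of the mitotic tumour cells differed from that of the other tumour cells by the interaction test (edgeR, adjusted p at most 0.05). S100a9 differed by 2.38 on the log2 scale. It stood at 1.33, 1.31, 48.3 and 72.9 CPM in the members and 3.27, 7.25, 58.0 and 34.9 CPM in the other cells, both controls being given first. The control members were thus near the floor for S100a9. Like Hbb-bt and Hba-a2, S100a9 met the limit for testing in the members through the SP11 libraries. The values of these genes are a description and no support for a difference. With SP11 the members lay below the other cells in Treated 1 and above them in Treated 2. The globin genes Hbb-bs, Hbb-bt, Hba-a2 and Hba-a1 differed by 1.95, 1.90, 1.86 and 1.84. Single cells carried much of the haemoglobin of the other tumour cells in the controls, 54.3% of it in 1 cell of Control 1 and 54.3% in 1 cell of Control 2. In the SP11 libraries the haemoglobin share of all UMIs was 0.981% and 0.458% in the members and 1.05% and 0.482% in the other cells. Gm42418 differed by -0.25 (adjusted p = 3.4e-04), a gene that overlaps ribosomal RNA.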

How the results depend on the processing

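Precision was limited by 2 libraries a group and by 105 to 238 members a library. No value of the genes named by size changed direction under the alternatives. Of their 234 SP11 values that could be tested, 60 no longer passed, and 25 of 72 interaction values did not. Named genes under the limit for testing in a setting gave no value there and are not among the 234. After thinning, for example, 6 SP11 values kept their call and 7 did not, beside 20 that kept it with other size factors. Between cell groups, 266 of 270 values kept their call. The other 4 were score genes whose fold moved when they were left out of the score. Between cell groups, DESeq2 called 373 genes higher and 479 lower, thinning 396 and 406, leaving out shared barcodes 611 and 682, the top 10% of the score 723 and 714, and leaving out 1 library 677 to 784 and 741 to 950. With no filter on low counts the calls were 705 and 1210, a share of higher calls of 36.8% in place of 47.1%. For SP11 in the members, DESeq2 called 19 higher and 14 lower, no filter 83 and 43, the top 10% 19 and 4, thinning 16 and 3, and leaving out shared barcodes 25 and 10. Leaving out 1 library gave 22 to 56 higher and 7 to 36 lower, with 30 and 8 without Control 2, 22 and 29 without Treated 1 and 40 and 7 without Treated 2. The share of higher calls was 60.0% with all libraries, 82.6% in the top 10%, 43.1% without Treated 1 and 85.1% without Treated 2. The interaction gave 2 and 0 calls with DESeq2, 0 and 0 in the top 10%, 1 and 0 after thinning, 2 and 0 without shared barcodes, 5 and 2 without doublets or with at least 1000 genes per barcode, and 3 to 8 and 0 to 2 without 1 library. The score ratio of the members was -0.087 without Treated 2 and 0.16 without Treated 1 on the log2 scale. Fewer cells or UMIs remain after thinning, in the top 10% and without shared barcodes, and for the other settings the cause was not tested. The labels name no litter or batch behind the replicate numbers, and with 2 pairs (correlation 0.109 between replicate 1 of control and of SP11 in their deviations from the group mean, over 9263 genes) pairing could not be settled. A fit with the number as a replicate block called 111 genes higher and 139 lower, and 11 of 19 histones lower in place of 4. Histones called lower were 2 with other size factors, without doublets or with at least 1000 genes, 1 without shared barcodes, 0 after thinning and 0 in the top 10%.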
